A study of Drosophila melanogaster with 64 samples.

Results

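The 7 genes described here encode the proteins that replace histones on the DNA of maturing Drosophila melanogaster sperm: the protamines Mst35Ba and Mst35Bb, the linker-histone-like Mst77F, the protamine-like Prtl99C, the transition protein Tpl94D and the testis HMG-box proteins tHMG1 and tHMG2. They were taken by symbol from a table of 17606 genes, in which Mst35Ba and Mst35Bb carry the symbols ProtA and ProtB, and all 7 were found. RNA from dissected testes was counted in 64 libraries, 4 pools for each of 8 lines at each of 2 stages, adults aged 1 to 5 days and larvae late in the last instar (L3). An adult pool was made of 20 testes cut away from the seminal vesicle. An L3 pool was made of 15 testes, from which papain and collagenase had removed the fat body.

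Of the lines, 7 carried a reciprocal translocation between the X and chromosome 2, T(1;2), and each translocation is represented by 1 line. The labels call BM1, BM5, BM6, BM24 and BM46 sterile and BM4 and BM21 fertile. The control was the irradiated parental stock without a translocation, which is grouped here with the fertile lines. Every line carried the X duplication Dp(1;1)scV1 with the alleles y2, y+, sc+, scV1, su(wa), wa, cv, v and f (the labels write y with the placeholder {gamma}). The labelled genotypes pair the sterile translocations with the balancer FM7i, P{ActGFP}JMR3, and the fertile translocations and the parental stock with the compound chromosome C(1)M4, y. Sterility and the chromosome on the other side of the genotype therefore split the lines in the same way and cannot be told apart. The labels do not say that the pools of a line came from separate crosses, so p-values within a line measure the spread between pools, which may be technical.

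In the male germline of flies, round spermatids elongate and condense their nuclei, and histones are first replaced by transition proteins and then by protamines and protamine-like proteins. Spermatids transcribe very little, so most of the mRNAs for these proteins are made earlier, in primary spermatocytes, under the control of the testis meiotic arrest genes, and are stored untranslated until elongation. The testis of a late larva holds spermatogonia and spermatocytes but not yet maturing spermatids, whereas the adult testis holds all stages. In whole testes, fewer cells of a type and less RNA per cell cannot be told apart.

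All 7 genes are autosomal, and 5 of them lie on chromosome 3, which takes no part in the translocations. Mst35Ba (FBgn0013300, 2L, 14879050 to 14881652) and Mst35Bb (FBgn0013301, 2L, 14882101 to 14883721) lie on the minus strand of chromosome 2, 448 bases apart. tHMG1 (FBgn0038978, 3R, 22491829 to 22492381) and tHMG2 (FBgn0038979, 3R, 22492953 to 22493746) lie 571 bases apart on the plus strand. Tpl94D (FBgn0051281, 3R, 22966284 to 22967842) and Prtl99C (FBgn0039707, 3R, 29835950 to 29837447) are also on the plus strand of that arm. Mst77F (FBgn0086915, 3L, 20816901 to 20818027) lies inside the span of Pka-R1, a protein kinase A regulatory subunit gene on the other strand, without sharing exon bases with it. The coordinates are those of the count table, and the same spans stand in the Ensembl annotation of BDGP6.

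Some of these counts are uncertain by construction. Mst35Ba and Mst35Bb are near-identical copies, and Mst77F has Y-linked copies, the Mst77Y genes, so reads could be split between copies in a way that the sources do not state. The libraries kept strand, but the strand setting of the counting is not given, and an exon of Prtl99C overlaps the antisense gene CG42592. CG42592 averaged 36.8 CPM (scaled counts per 1000000) in adult and 31.6 CPM in L3 parental testes.

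Counts per library ran between 20387 and 24650332 in adult testes and between 8961413 and 21275143 in L3 testes. Of the adult libraries, 3 were shallow (under 1000000 counts): BM6 replicate 3 and BM24 replicates 2 and 3, with 20387, 233047 and 43347 counts. BM6 replicate 3 held between 1 and 28 counts of each of the 7 genes. Levels are CPM scaled by TMM over the 64 libraries and leave out these 3 libraries, so that adult BM6 has 3 libraries and adult BM24 has 2, whereas the tests keep them unless stated. Germline markers were present at both stages: the spermatocyte gene aly had a median of 44.9 CPM in adult and 85.7 CPM in L3 testes, and the sperm tail gene dj had 1629 and 544 CPM. Accessory gland genes (that gland secretes seminal fluid proteins) had a mean log2 CPM above 3 in 7 adult libraries (2 each of BM1, BM6 and BM4 and 1 of BM21). Their summed level ranged between 58.4 and 11993 CPM in sterile and between 50.1 and 1834 CPM in fertile adult lines, against 28.1 to 36.2 and 26.7 to 34.5 CPM in L3 testes. None of the 22 accessory gland genes was at 0 in adult testes, and 2 (sterile lines) or 4 (fertile lines) were in L3 testes.

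The first question was how the 7 genes change between L3 and adult testes where there is no translocation. In the parental stock 6 of the 7 were higher in adult testes (edgeR quasi-likelihood test, adjusted p under 0.05), by 1.32-fold to 1.83-fold, and tHMG1 did not pass. Of all genes tested, 74.6% were called in this comparison, 36.1% higher and 38.5% lower. The median log2 fold change was 0.53 over the 7 genes and −0.05 over all genes tested. The 7 genes together took a median of 0.463% of the counts of an adult library (range 0.396 to 0.533%, 29 libraries) and 0.366% of an L3 library (0.317 to 0.447%, 32 libraries).

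Among the transition proteins, Tpl94D, which is present while histones leave the spermatid nucleus, had 994, 1006, 1032 and 1064 CPM in the 4 adult parental libraries, against 612, 529.6, 572 and 547 CPM in the 4 L3 libraries. Every adult library was above every L3 library, and the change was the largest of the 7 in this stock, with a log2 fold change of 0.87 ± 0.0678 (SE, adjusted p = 1.62e-07). tHMG2, an HMG-box protein of the same phase, had 529.9, 554, 522 and 478 CPM in adult testes, against 335, 375, 314 and 440.3 CPM in L3 testes. The stages did not overlap for tHMG2, with L3 replicate 4 the highest of its stage, and the log2 fold change was 0.53 ± 0.103 (adjusted p = 0.000499). Its neighbour tHMG1 had 389, 363, 389.6 and 475 CPM in adult testes, against 371, 357, 339 and 379 CPM in L3 testes. These values overlapped, with adult replicate 4 standing above the rest, and the log2 fold change was 0.17 ± 0.0871 (adjusted p = 0.0899). With DESeq2 tHMG1 passed at 0.21 (adjusted p = 0.0257), and scaled by library size alone it was lower in adult testes, at −0.23 (adjusted p = 0.0387). By that scaling 3 of the 6 higher calls were lost: tHMG2 (0.12, adjusted p = 0.232), Mst77F (0.11, 0.184) and Prtl99C (−0.017, 0.908).

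Among the proteins of the mature sperm nucleus, Mst77F, which is needed for nuclear shaping and male fertility, was the most abundant, with 2256, 2315, 1923 and 1796 CPM in adult parental testes, against 1440.3, 1406, 1381 and 1632 CPM in L3 testes. The stages did not overlap (log2 fold change 0.52 ± 0.0958, adjusted p = 0.000309). The protamine gene Mst35Bb had 403, 317, 277 and 294 CPM in adult testes, against 202, 173, 165 and 198 CPM in L3 testes (log2 fold change 0.83 ± 0.114, adjusted p = 2.59e-05). Its copy Mst35Ba had 209.8, 194, 158 and 153 CPM in adult testes, against 124, 117, 114.8 and 121 CPM in L3 testes (log2 fold change 0.61 ± 0.0965, adjusted p = 8.26e-05). For both protamines every adult library was above every L3 library, and adult replicate 1 was the highest.

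Prtl99C, which is needed for the compaction of the sperm nucleus, had 234, 212, 146 and 139 CPM in adult parental testes, against 127, 143, 141 and 157 CPM in L3 testes. Adult replicates 1 and 2 were above every L3 library, whereas adult replicates 3 and 4 lay within the L3 range. Its log2 fold change was 0.40 ± 0.147 (adjusted p = 0.0262). That call was lost when adult replicate 1 or 2, or L3 replicate 1, 2 or 3, was left out, with log2 fold changes between 0.25 and 0.39 and adjusted p between 0.0557 and 0.1003. Adult replicates 1 and 2 had 21787541 and 24650332 counts, and replicates 3 and 4 had 8688379 and 2971832. The part of depth in this difference was not tested.

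Per kilobase of exon, the order of levels in adult parental testes was Mst77F (1946 ± 237 CPM per kb, SD, n = 4), tHMG2 (796 ± 48.4), tHMG1 (731 ± 88), Tpl94D (687 ± 20.9), Mst35Bb (475 ± 82.7), Mst35Ba (262 ± 40.5) and Prtl99C (173 ± 45.2). In L3 parental testes tHMG1 stood above tHMG2, at 654 ± 31.7 and 559.5 ± 85.2 CPM per kb, and the rest kept this order. Mst77F ranked 42 among 15271 detected genes in adult parental testes and 17 among 15068 in L3 testes, and Prtl99C ranked 877 and 874. All 7 transcripts were therefore detected in every larval pool.

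**Figure D1:**
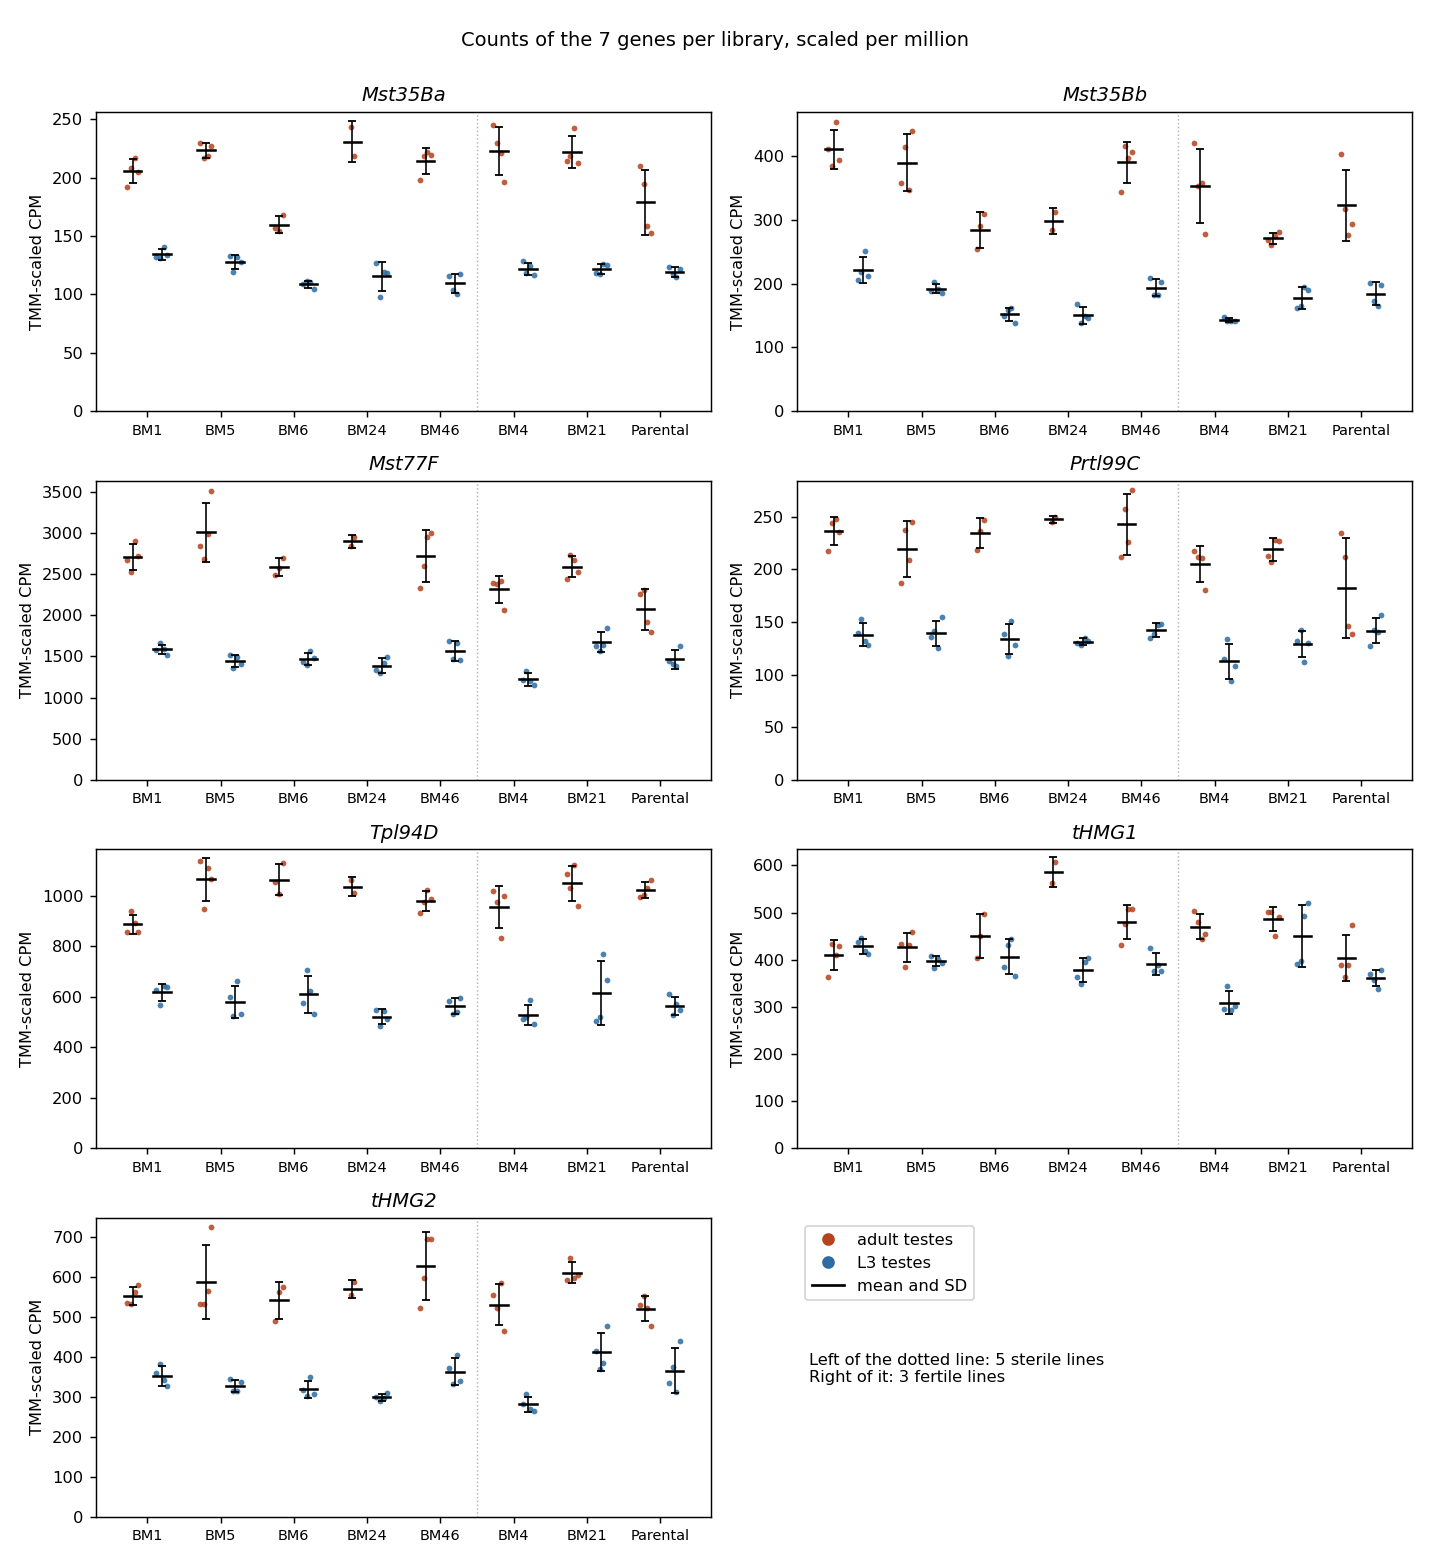
CPM, scaled by TMM, of the 7 genes in each library of adult (red) and L3 (blue) testes, by line, with the mean and SD of each group; 3 shallow adult libraries are left out. Adult libraries lie above the L3 libraries of their line in all 8 lines for Mst35Ba, Mst35Bb, Mst77F, Tpl94D and tHMG2, in 7 lines for Prtl99C and in 3 lines for tHMG1. The share of all genes that separate in this way was not counted.

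The same stage comparison was made within each of the 8 lines. Of the 56 values (7 genes in 8 lines), 48 were called, all of them higher in adult testes, and 55 were above 0. In the translocation lines the share of all tested genes called higher was 39.3% in BM1, 37.6% in BM5, 37.4% in BM6 and 27.9% in BM24. It was 37.4% in BM46, 37.7% in BM4 and 36.4% in BM21. Without the 3 shallow libraries 51 of the 56 were called, with a background of 37.6% in BM6 and 37.8% in BM24. Over the 56 values the median log2 fold change was 0.76.

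The protamines, Mst77F and Tpl94D rose in all 8 lines with TMM scaling. By library size alone the call was lost for Mst35Ba in BM1 (0.12), BM6 (0.097) and BM24 (0.37), Mst35Bb in BM24 (0.30), Tpl94D in BM1 (0.024) and BM24 (0.38) and Mst77F in the parental stock. Without the accessory gland libraries Mst77F in BM6 was not called (0.51, adjusted p = 0.147). That fit kept only replicate 4 and the shallow replicate 3 of adult BM6, with 23942015 and 20387 counts. The loss of depth and the absence of accessory gland RNA therefore cannot be told apart there. Mst35Bb changed between 0.59 in BM24 and 1.33 in BM4 on the log2 scale. In BM4 it had 421, 354, 358 and 279 CPM in adult testes, against 148, 142, 142 and 141 CPM in L3 testes. The BM24 value was 0.97 without the shallow libraries and moved between 0.38 and 0.94 as single libraries of the line were left out (0.38 without adult replicate 4, 0.94 without adult replicate 2). Its call in BM24 was lost without any 1 of the 4 L3 libraries or adult replicate 1 or 4. The BM24 calls of Mst35Ba and Tpl94D were also lost without adult replicate 1 or 4, and that of Mst35Ba without L3 replicate 1, 2 or 3. Mst35Ba changed between 0.56 (BM6) and 0.96 (BM46). Mst77F changed between 0.52 (parental stock) and 1.06 (BM5), and in BM5 it had 2851, 2693, 2989 and 3520.3 CPM in adult testes, against 1522, 1356, 1490.5 and 1409.8 CPM in L3 testes. Tpl94D changed between 0.53 (BM1) and 0.88 (BM4).

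Prtl99C and tHMG2 rose in 7 of 8 lines. The exception for both was BM24, at 0.48 and 0.34 with the shallow libraries, where both passed at 0.90 and 0.91 without them. tHMG1 stood apart, with calls in 2 of 8 lines. In BM4 it had 503, 479, 445 and 455 CPM in adult testes, against 296, 345, 293 and 303 CPM in L3 testes (log2 fold change 0.63 ± 0.0658, adjusted p = 2.41e-06). The stages did not overlap there. In BM46 its log2 fold change was 0.28 (adjusted p = 0.00187), and in BM24 0.32, or 0.62 and called without the shallow libraries. In BM1 it had 364, 434, 410.0 and 429 CPM in adult testes, against 437, 446, 419 and 412 CPM in L3 testes. The 2 stages overlapped in BM1, and the log2 fold change was −0.05 (95% interval −0.18 to 0.07).

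Direction and calls depended on the scaling. By library size alone 36 of the 48 calls remained, 11 were lost and 1 (tHMG1 in BM46) was opposite, and tHMG1 was called lower in adult testes in 6 of 8 lines, whereas the fitted change of Prtl99C was positive in 7 lines and that of the other 5 genes in all 8. That scaling moved the median of all genes from −0.05 to −0.47 in the parental stock, so the changes of the 7 genes are stated relative to the TMM median.

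**Figure D2:**
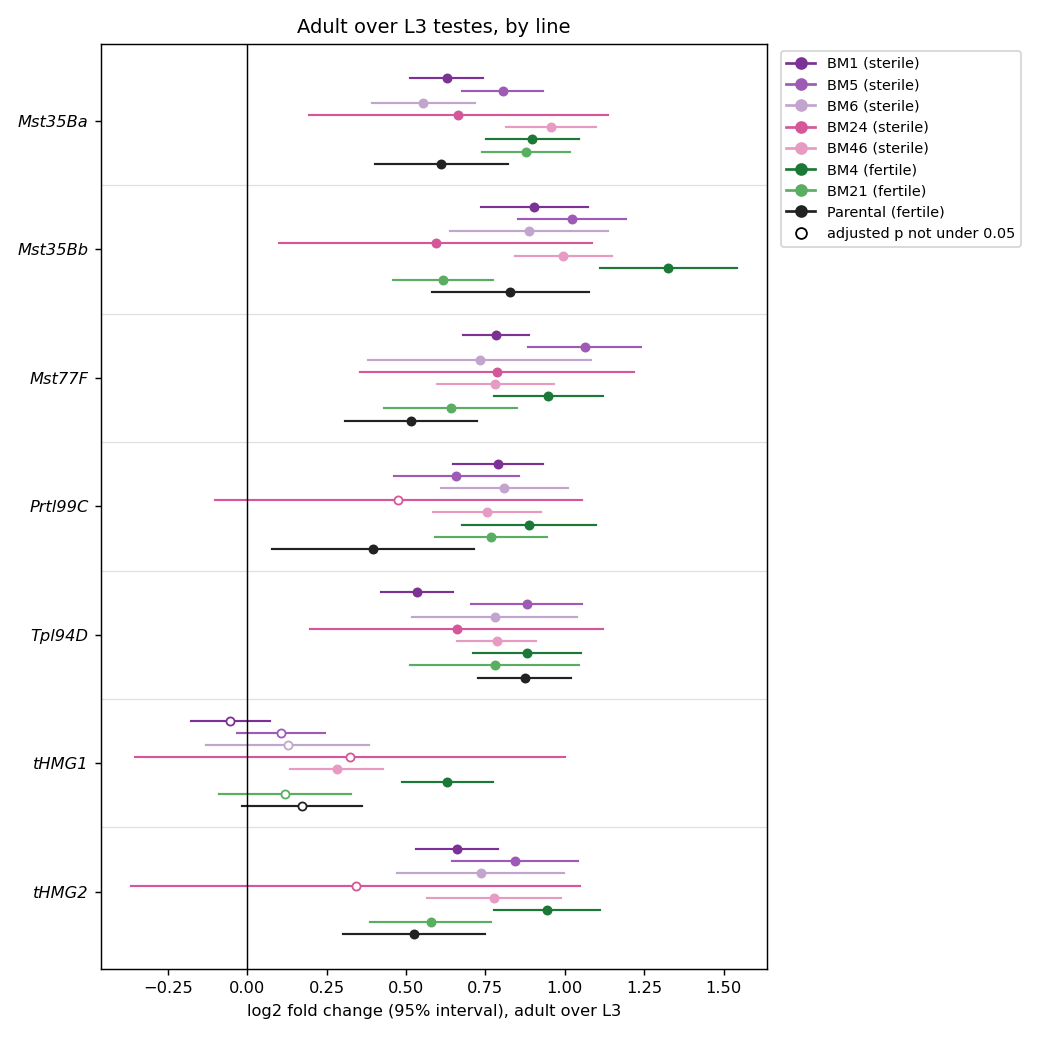
Log2 fold change, adult over L3 testes, of the 7 genes in each line, with all libraries; lines are 95% intervals and open circles mark adjusted p not under 0.05. The values lie between 0.34 and 1.33 for 6 genes and between −0.05 and 0.63 for tHMG1.

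Whether the stage change differed between lines was tested with 1 F test per gene over all 64 libraries. It was called for 4 of the 7 genes, where 53.0% of all tested genes were called: tHMG1 (adjusted p = 0.00159), Mst35Ba (0.0161), Mst35Bb (0.0228) and Mst77F (0.0306). The adjusted p was 0.307 for Tpl94D, 0.319 for Prtl99C and 0.492 for tHMG2. Without the 3 shallow libraries tHMG2 also passed (adjusted p = 0.0286). When the 7 adult libraries high in accessory gland genes were left out, tHMG1 alone passed (0.00757), and Mst35Ba, Mst35Bb and Mst77F had 0.0973, 0.0598 and 0.0515. Adult BM6 then kept only replicate 4 and the shallow replicate 3. Leaving out all libraries of replicate number 1, 2, 3 or 4 left 1, 1, 2 and 2 calls, and tHMG1 kept its call except without replicate 1 (0.0964). Over all genes the calls also fell, from 6925 to 5704 without the accessory gland libraries. They were 3890, 5427, 6082 and 4407 without replicate number 1, 2, 3 or 4. Mst35Ba was not called by DESeq2 (0.129), nor Mst77F without the filter on low counts (0.0509).

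The paralogous neighbours tHMG1 and tHMG2 changed unequally between the stages, which a ratio within each library shows without any scaling. The ratio of tHMG1 to tHMG2 per exon length was lower in adult than in L3 testes in all 8 lines, by 0.29 (BM24) to 0.73 (BM5) on the log2 scale with a median of 0.47. Over the 29 adult libraries it had a median of 0.942 (0.749 to 1.23), and over the 32 L3 libraries a median of 1.38 (1.02 to 1.68). In BM5 it was 0.963, 0.857, 0.898 and 0.749 in adult testes, against 1.4, 1.44, 1.5 and 1.38 in L3 testes. In the parental stock it was 0.867, 0.775, 0.883 and 1.17 in adult testes, against 1.31, 1.13, 1.28 and 1.02 in L3 testes. The stages overlapped in the parental stock and in none of the 7 translocation lines.

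The ratio of Mst35Ba to Mst35Bb was lower in adult testes in 6 of 8 lines, with a median change of −0.22, and its median was 0.573 over adult and 0.685 over L3 libraries. It did not overlap between the stages in 4 lines. In BM4 it was 0.579, 0.646, 0.615 and 0.7 in adult testes, against 0.863, 0.827, 0.87 and 0.823 in L3 testes. BM21 went the other way, with 0.794, 0.836, 0.877 and 0.753 in adult testes, against 0.728, 0.71, 0.641 and 0.65 in L3 testes. Since these are near-identical copies, a ratio between them also rests on how the authors' counting treated shared reads. The ratio of Prtl99C to Tpl94D overlapped between the stages in all 8 lines. These ratios are descriptions and were not tested, and how often ratios of other gene pairs separate by stage was not counted.

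**Figure D3:**
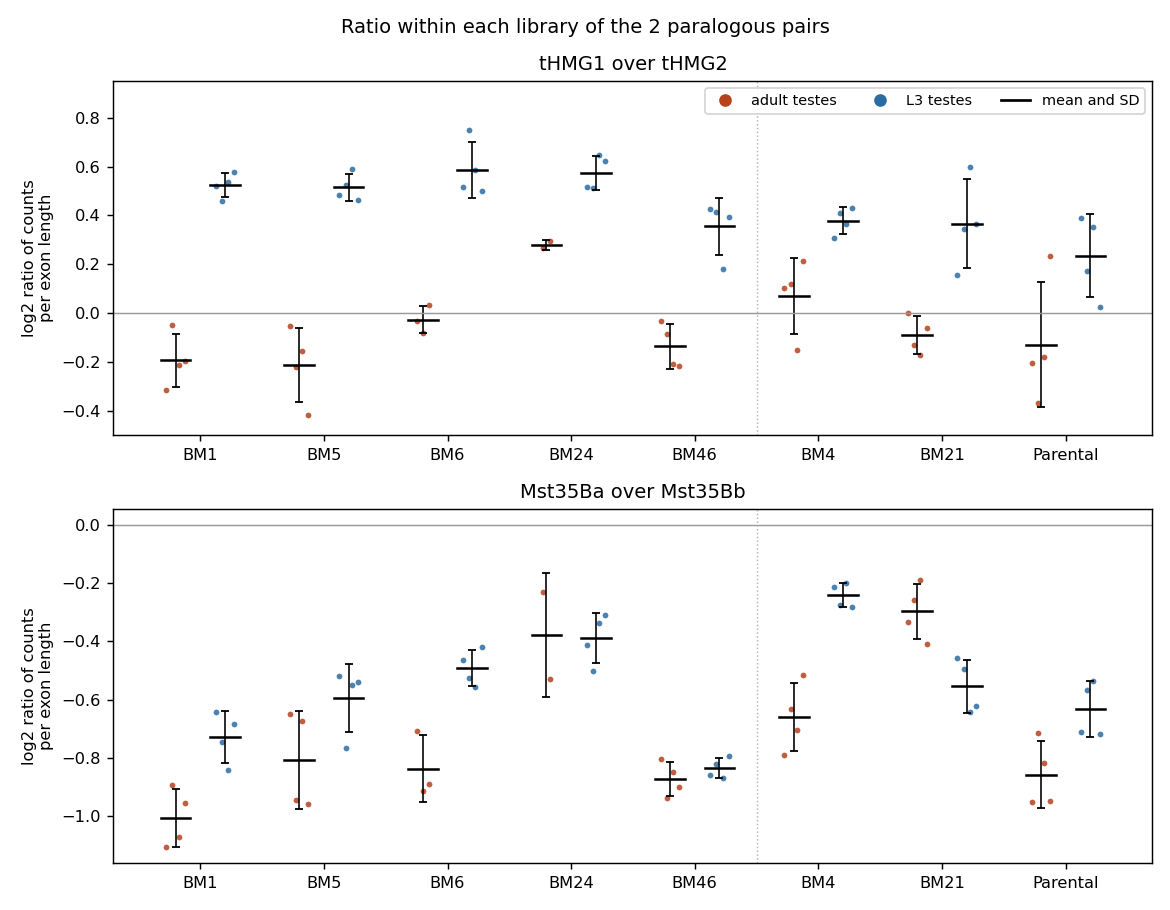
Log2 ratio of counts per exon length within each library, for tHMG1 over tHMG2 (top) and Mst35Ba over Mst35Bb (bottom), in adult (red) and L3 (blue) testes of each line, with mean and SD; the dotted line divides sterile (left) from fertile lines. For tHMG1 over tHMG2 the adult mean is below the L3 mean in all 8 lines; for Mst35Ba over Mst35Bb it is in 6.

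Within groups the 7 genes did not vary as 1 unit. Over the deviations of 61 libraries from their group means, the closest pairs were Mst77F with tHMG2 (Pearson r = 0.845, Spearman rho = 0.822) and Mst35Ba with Mst35Bb (0.682 and 0.607). Prtl99C and Tpl94D went in opposite directions (−0.396 and −0.356). The libraries share preparation and depth, and these are descriptions over libraries.

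The second question was whether the translocations change these genes. In adult testes 39 of 49 values (7 genes in 7 translocation lines) were above the parental level. With all 32 adult libraries, 4 of 49 values were called, all higher than in the parental stock: Mst77F in BM1 (0.40 on the log2 scale), BM5 (0.54) and BM46 (0.40), and tHMG1 in BM24 (0.44). Of all tested genes, 51.2% were called in BM1, 31.1% in BM5, 38.5% in BM6, 28.5% in BM24, 34.0% in BM46, 17.8% in BM4 and 19.6% in BM21. Leaving out single libraries moved the count between 1 (without parental replicate 3) and 14 (without BM24 replicate 3). It was 11 without parental replicate 1, 10 without BM24 replicate 2, 9 without BM6 replicate 3 and 7 without BM1 replicate 1, and 2 without parental replicate 4 or BM46 replicate 3 or 4.

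Without the 3 shallow libraries 25 of 49 values were called, 24 higher and 1 lower. The background was then 59.3% in BM1, 40.2% in BM5, 48.3% in BM6, 36.4% in BM24, 43.4% in BM46, 26.6% in BM4 and 28.9% in BM21. The calls fell on 5 genes in BM1, 2 in BM5, 2 in BM6, 4 in BM24, 6 in BM46, 2 in BM4 and 4 in BM21. All these contrasts share the parental libraries, so a parental library that is high or low moves all 7 lines together. By the sample codes in the labels, read here as plate wells, the adult parental libraries were in plate row C and all adult translocation libraries in rows D to F. Plate row and translocation therefore cannot be told apart in the adult contrasts. In L3 testes the parental stock shared its row, A, with BM1 and BM4 alone.

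Without the 3 shallow libraries, Mst77F was above the parental stock in all 7 lines, by 0.18 (BM4, not called) to 0.54 (BM5), and was called in the other 6, against 3 lines with all libraries. Its levels in the sterile lines were 2679, 2530.0, 2906 and 2719 CPM in BM1 and 2332, 2604, 2953 and 2999 CPM in BM46, beside the BM5 values above. The deep libraries of BM6 had 2493, 2575 and 2701 CPM and those of BM24 had 2847 and 2953 CPM. The fertile lines had 2394, 2387, 2416 and 2072 CPM in BM4 and 2439.7, 2731, 2675 and 2533 CPM in BM21. Against the parental values given above, every library of these lines was higher than the highest parental library, except replicate 4 of BM4.

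Mst35Ba, Mst35Bb and Prtl99C were called in no adult line with all libraries. Without the 3 shallow libraries Mst35Ba was higher in 6 lines (0.21 to 0.37) and had −0.16 in BM6, which did not pass. Mst35Bb was higher in BM1 (0.36) and BM46 (0.28) and otherwise had values between −0.24 and 0.27. In the same fit Prtl99C was higher in 4 sterile lines, BM1, BM6, BM24 and BM46 (0.36 to 0.44), and had 0.17 to 0.26 in the other 3. Its parental libraries were split, with replicates 1 and 2 above replicates 3 and 4, as given above.

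tHMG1 was higher in BM24, BM46, BM4 and BM21 without the 3 shallow libraries, and in BM24 alone with all libraries. In BM24 it had 564 and 608 CPM in the 2 deep libraries, against 389, 363, 389.6 and 475 CPM in the parental stock, which do not overlap (without the shallow libraries, log2 fold change 0.55 ± 0.0957, adjusted p = 6.17e-05). In that fit tHMG2 was higher in BM46 (0.28) and BM21 (0.24). Tpl94D was the 1 gene with a fall in that fit, in BM1 (−0.19, adjusted p = 0.0117), and with all libraries it did not pass (adjusted p = 0.137). It had 858, 940.5, 892 and 859 CPM in BM1, against 994, 1006, 1032 and 1064 CPM in the parental stock, without overlap.

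Across the 8 adult lines the highest line mean was 1.202 (Tpl94D) to 1.52 (Mst35Bb) times the lowest. When lines were put in order of their means, neighbours overlapped at every step for 5 of the 7 genes. The exceptions were BM24 above BM21 for tHMG1 and BM6 above BM4 for Mst77F. The parental stock had the lowest mean of the 8 lines for Mst77F, Prtl99C, tHMG1 and tHMG2.

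In L3 testes 12 of 49 values were called, 5 higher and 7 lower than in the parental stock. Of all tested genes, 43.5% were called in BM1, 43.9% in BM5, 44.9% in BM6, 42.9% in BM24, 45.5% in BM46, 37.7% in BM4 and 34.8% in BM21. The calls fell on 3 genes in BM1, 1 in BM6, 2 in BM24, 4 in BM4, 2 in BM21 and none in BM5 or BM46. Without L3 parental replicate 4 the calls were 9 higher and 4 lower, and without replicate 3 they were 4 higher and 10 lower. In BM4 all 4 fell: Mst35Bb (−0.33), tHMG2 (−0.34), Prtl99C (−0.30) and Mst77F (−0.22).

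Mst77F had 1213, 1328, 1199 and 1149 CPM in BM4 L3 testes, all below the parental values of 1440.3, 1406, 1381 and 1632 CPM. tHMG2 had 283, 307, 269 and 266 CPM in BM4, also all below its parental values. BM4 had the lowest L3 mean of the 8 lines for 5 of the 7 genes (Mst35Bb, Mst77F, Prtl99C, tHMG1 and tHMG2). Without L3 parental replicate 4, the highest for Mst77F, Prtl99C and tHMG2, the BM4 values were −0.17 for Mst77F and −0.24 for Prtl99C and did not pass, and Prtl99C also lost its call without BM4 replicate 3 (−0.22).

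BM1 had higher Mst35Ba (0.20), Mst35Bb (0.30) and tHMG1 (0.28) in L3 testes. BM21, the other fertile translocation, had higher tHMG1 (0.35) and Mst77F (0.22). Mst35Bb was lower in BM6 (−0.27) and BM24 (−0.28), and tHMG2 was lower in BM24 (−0.27). Tpl94D passed in no line (−0.10 to 0.16). The Mst77F call in BM21 was lost without L3 parental replicate 3 or BM21 replicate 4 (0.19 and 0.17), and the tHMG2 call in BM24 without L3 parental replicate 4 (−0.17).

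**Figure D4:**
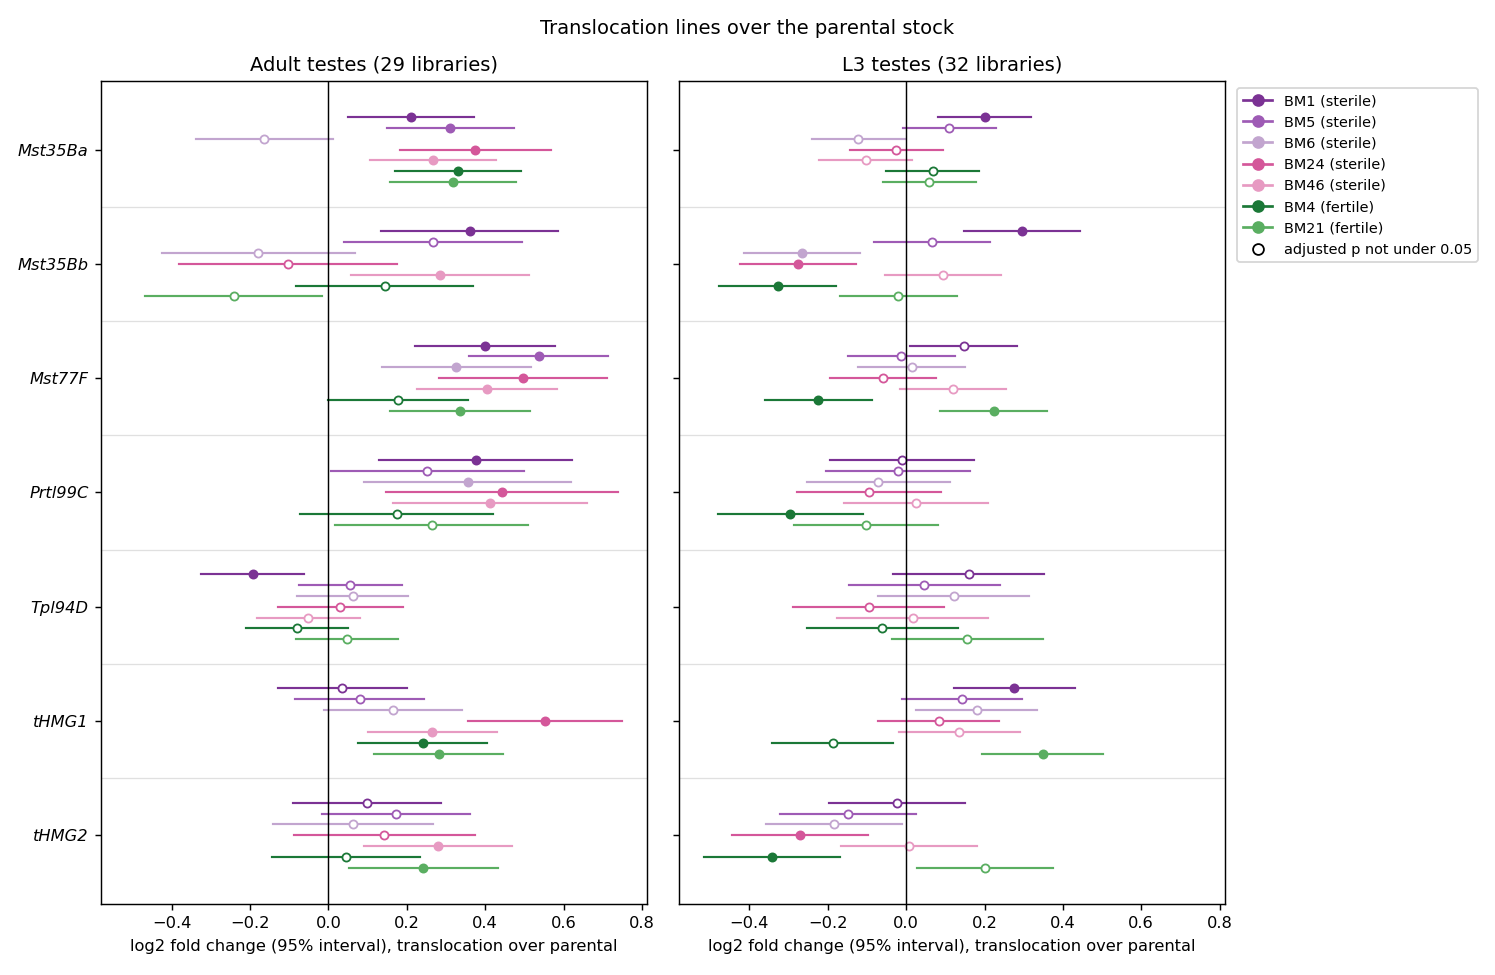
Log2 fold change of each translocation line over the parental stock in adult testes (left, without the 3 shallow libraries) and L3 testes (right), with 95% intervals; open circles mark adjusted p not under 0.05. Adult values of Mst77F lie between 0.18 and 0.54, all above 0, and L3 values of the same gene between −0.22 and 0.22.

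The third question was whether the genes differ between sterile and fertile lines. For this the pools of each line were summed, so that the line is the replicate. None of the 7 genes was called between the 5 sterile and 3 fertile lines at either stage by edgeR. At an unadjusted p under 0.05 there were 2 in adult testes (Mst77F and Prtl99C) and 0 in L3 testes. Over all genes there were 3029 of 13596 in adult and 2847 of 13132 in L3 testes. DESeq2 called 1 of the 7 (Mst77F) in adult and 0 in L3 testes, where it called 1610 and 1400 of all genes. By edgeR, 2.76% of all genes were called in adult testes (1.48% higher and 1.28% lower in sterile lines). In L3 testes 5.53% were called (3.26% higher and 2.27% lower). The median log2 fold change of the 7 genes was 0.07 in adult testes, where that of all genes was 0.02, and 0.04 in L3 testes, where that of all genes was −0.0028.

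Adult Mst77F had 2706, 2999, 2609, 2893 and 2736 CPM in the summed sterile lines BM1, BM5, BM6, BM24 and BM46, against 2319.7, 2575 and 2202 CPM in BM4, BM21 and the parental stock. The classes did not overlap, with means of 2789 ± 156 (SD, n = 5) in sterile and 2366 ± 190.4 (n = 3) in fertile lines. The share of all genes without such overlap was not counted. The log2 fold change was 0.23 (95% interval 0.04 to 0.42), with an adjusted p of 0.153 by edgeR and 0.0253 by DESeq2. Across the 15 alternatives it ranged between 0.16 and 0.30, with adjusted p between 0.0253 and 0.539. Prtl99C averaged 236 ± 11.8 CPM in sterile and 210.1 ± 7.64 CPM in fertile lines, which overlapped (log2 fold change 0.16, adjusted p = 0.215). The intervals of the other 5 genes reached no further than −0.32 and 0.47 in adult testes, and those of all 7 genes no further than −0.33 and 0.42 in L3 testes.

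Sample codes in the labels open with a letter and a number, which are read here as the plate well. The labels do not call them wells, but RNA of all samples was extracted on 1 plate. Within plate row D (2 sterile lines and 1 fertile) the adult difference for Mst77F was 0.26, and within row E (also 2 and 1) 0.10. In L3 testes the differences for Mst77F were 0.25 within row A and −0.18 within row B. Median summed levels of fat body and muscle genes were higher in sterile than in fertile lines at both stages. Outside the L3 fat body genes few were called. In adult testes these were 1 of 9 tested fat body and 1 of 16 muscle genes, and in L3 testes 1 of 13 muscle genes. Fat body genes, such as those for larval serum and yolk proteins, had a summed level of 216 to 2165 CPM in sterile L3 pools (median 1023) and 104 to 612 CPM in fertile ones (median 189), with 8 of 10 tested genes called higher and none of the 11 at 0. In adult testes the sums were 134 to 1140 CPM (median 167) and 56.8 to 136 CPM (median 88.7). Muscle genes summed to 545 to 866 CPM in sterile and 447 to 567 CPM in fertile adult pools. Their part in the values of the 7 genes was not tested.

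Whether the stage change differed between the classes was tested with the line as a block. No gene was called among the 7 (0% of all genes tested by edgeR, 1509 genes at an unadjusted p under 0.05, and 190 by DESeq2, none of them among the 7). The interaction term was largest for Mst77F, at 0.18 (95% interval −0.07 to 0.43, adjusted p = 0.604).

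The rest of the pathway gives the frame for these changes, all in the parental stock and adult over L3. Of 8 other sperm nuclear protein genes 6 rose and 1 fell (median log2 fold change 0.85, where that of all tested genes was −0.05). CG30056 had 169.7 ± 16.3 CPM in adult and 68.8 ± 9.96 CPM in L3 testes (1.33), and CG31010 (1.27), CG14835 (1.15) and CG42355 (1.04) rose by a similar amount. Of the 2 Mst77Y genes that could be tested, Mst77Y-16Psi, a pseudogene by its name, rose (0.52), beside 0.52 for its autosomal relative Mst77F. It had 34.3 ± 2.34 CPM in adult and 24.4 ± 3.10 CPM in L3 testes, far below Mst77F. Reads shared with Mst77F could move these values, so the 2 changes are not independent measurements.

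Genes listed for the histone to protamine transition (remodelers, histone chaperones, ubiquitin ligase parts, bromodomain proteins and histone variants) moved mostly the other way: 12 of 19 fell and 4 rose (median −0.46). Cul3, a ubiquitin ligase scaffold, was the largest rise, with 1529 ± 106 CPM in adult and 735 ± 28.4 CPM in L3 testes (1.07). The histone chaperone genes Nph (60.7 ± 9.71 CPM in adult, 137 ± 6.56 CPM in L3 testes, −1.13) and Nlp (−0.95) and the chromatin assembly subunit gene Caf1-55 (−0.95) fell. The meiotic arrest regulators, most of which act to switch on spermatid genes in spermatocytes, fell in 12 of 13 cases and rose in none (median −0.92). nht, a testis TAF, had 33.9 ± 2.34 CPM in adult and 72.6 ± 7.66 CPM in L3 testes (−1.09), and tomb (−1.05), comr (−1.01) and kmg (−0.97) fell alike.

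Most other genes used in spermatids rose. Of 15 spermatocyte-transcribed differentiation genes 13 rose and 2 fell (median 1.32). janB had 489.7 ± 10.7 CPM in adult and 179.8 ± 10.4 CPM in L3 testes (1.46), and the sperm tail genes Mst84Da (1.48) and Mst84Dc (1.41) rose similarly. Of 15 tested genes of the cup and comet list, 14 rose and 1 fell (median 0.86). Spermatids transcribe the cup and comet genes after meiosis. w-cup had 4034 ± 62.3 CPM in adult and 980.4 ± 80.1 CPM in L3 testes (2.06). scpr-A, kept in that list, belongs to the scpr secreted proteins and is not a cup or comet gene by name. It was close to absent from L3 testes, with 735 ± 149.7 CPM in adult and 0.52 ± 0.313 CPM in L3 testes (40115 and 27 counts over 4 libraries each). The gene sunz (1.61) is in both lists, and gdl is in the first and in the transition list. No difference between the lists was tested.

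**Figure D5:**
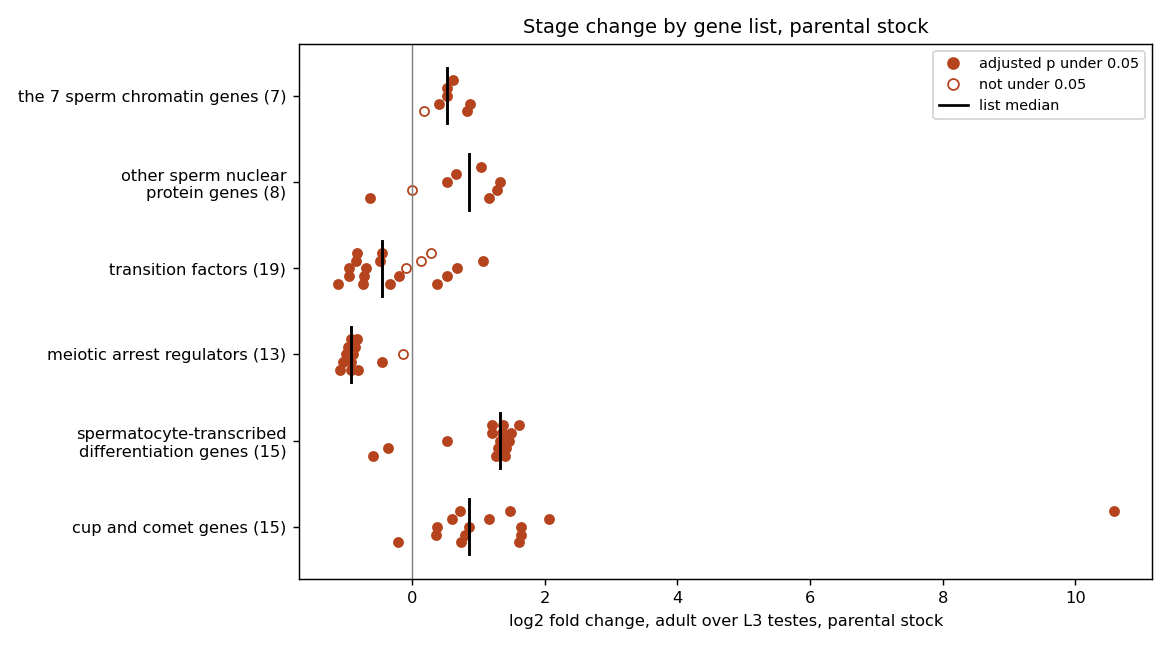
Log2 fold change, adult over L3 testes of the parental stock, for the 7 sperm chromatin genes and 5 lists of germline genes; each point is a gene, filled where the adjusted p is under 0.05, and the bar is the list median. The median is 0.53 for the 7 genes, −0.92 for meiotic arrest regulators and 1.32 for spermatocyte-transcribed differentiation genes.

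Markers of other cells moved with the stage as well. In the parental stock 8 of 10 spermatogonial genes fell and none rose (zpg at −1.02, vas at −0.83). Of 10 cyst and hub genes 5 rose and 4 fell (Fas3 at 4.77, tj at −1.03). Of 14 muscle genes 13 rose (up at 5.93), of 9 fat body genes 7 fell and 1 rose (Lsp1gamma at −2.97), and of 5 accessory gland genes 3 rose and 1 fell (Est-6 at 4.55). In adult testes muscle genes summed to 447 to 866 CPM, against 246 to 387 CPM in L3 testes, with none of the 16 at 0. The part of these cells in the stage changes of the 7 genes was not tested.

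The genes whose pattern was most like the mean of the 7 over the 16 groups were found by Pearson correlation of group means among 10104 genes. They were CG3306 (r = 0.991), CG9129, CG31407, betaTub85D (0.987, the tubulin of spermatocytes and spermatids), CG7202, CG4546, CG32450, CG8564, CG10317 and CG14154 (0.984). All 10 lie on chromosome 3. Of the 7 genes themselves, Mst77F was closest to this mean (0.986) and tHMG1 farthest (0.784). Over the 16 groups such a correlation is set mostly by the difference between the stages. Within the 8 adult lines the likest were CG5347 (0.943), CG13671, CG7202, CG8664 and Nf-YA, and within the 8 L3 lines asRNA:CR45968 (0.969), CG6409, lncRNA:CR44921, CG32236 and CG31391. CG7202 was in the first list too.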

How the data were processed

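RNA of dissected testes was measured in 64 libraries, 4 replicates of each of 8 lines at 2 stages. Per the labels' protocols, polyadenylated RNA was taken from 350 ng of total RNA, libraries marked strand with dUTP, samples collected on different days were extracted and prepared together on 1 plate of wells, and 8 libraries shared a lane of 50-base single reads. Per the submitters' processing notes, the tools included featureCounts 1.6.1, HISAT2 2.1.0, cutadapt and bcl2fastq 1.8. The build aligned to, and any use of strand in counting, were not given in the sources used here.

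Raw counts per gene (17606 genes) were deposited by the authors and used as they stand. Depth per library is given in the report, and with the 3 shallow libraries a gene has few counts and a wide counting error. In R 4.3.3, edgeR 4.0.16 (TMM scaling, filterByExpr, quasi-likelihood F test) was run on all genes of each comparison, with Benjamini-Hochberg adjustment over all genes tested and a threshold of 0.05. Stage was tested within each line, each translocation against the parental stock within each stage, and sterile against fertile lines on counts summed per line. The interaction of stage and class had the line as a block, and the difference of the stage change between lines was an F test over all groups. SE and 95% intervals are of the log2 fold change from the same fit. Levels are TMM-scaled CPM, and values per kb divide by exon length. DESeq2 1.42.0, other scalings, no filter, libraries or lines left out and plate row as a covariate were alternatives. The replicate numbers in the labels were not taken to pair samples: over all lines, deviations of same-numbered libraries of the 2 stages correlated between −0.113 and 0.137, over 0.1 in 3 of 29 pairs. No 2 replicates held identical values. Tested on simulated data with 200 changed genes among 11318, the parental stage comparison recovered 92% of them. In the measured data 74.6% of the genes tested were called in that comparison. The simulation therefore shows that the procedure runs as intended, and the 92% does not measure how many real changes were found.

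The 7 genes and the gene lists were chosen with earlier results of these data known. The text names all 7 genes in every comparison, up to 4 called genes of largest change per list, the genes of likest pattern (10 over all groups, 5 within each stage) and genes overlapping the 7.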

Additional observations from a re-analysis of the deposited data

Results flagged for a closer look

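In 3 of 98 sets of 4 libraries (0 of 14 sets of 5 lines), 1 library stood apart from the rest of its group, where chance gives about 1 in 20. Mst35Ba had 197.66 CPM in replicate 1 of adult BM46, below the 218.65 to 222.24 CPM of the other 3. Mst35Bb had 148.12 CPM in replicate 1 of BM4 L3 testes, above the 140.84 to 142.06 CPM of the other 3. Mst77F had 2071.6 CPM in replicate 4 of adult BM4, below the 2386.6 to 2415.9 CPM of the other 3, and BM4 is the 1 line in which adult Mst77F did not pass against the parental stock without the shallow libraries.

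The change between adult and L3 testes passed the test of a difference between the 8 lines for 4 of the 7 genes (edgeR F test, adjusted p), where 53.0% of all tested genes passed. These were Mst35Ba (0.016148, log2 fold changes 0.56 to 0.96), Mst35Bb (0.022802, 0.59 to 1.33), Mst77F (0.030602, 0.52 to 1.06) and tHMG1 (0.0015872, −0.05 to 0.63). The change was positive in all 8 lines for the first 3 and in 7 of 8 for tHMG1. Without the accessory gland libraries 1 of the 4 passed (tHMG1), without a replicate number 1 to 2 genes did, DESeq2 lost Mst35Ba (0.129) and no filter on low counts lost Mst77F (0.0509). Calls over all genes fell too, from 6925 to 5704 without the accessory gland libraries and to between 3890 and 6082 without a replicate number.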

How the results depend on the processing

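The 6 calls among the 7 genes in the parental stage comparison became 7 with DESeq2-type size factors or DESeq2 and 5 to 6 with single libraries left out. By library size alone 3 of them remained, and tHMG1 was called lower. Over 8 lines 44 to 51 were called, all higher, except by library size alone, where 36 of the 48 remained and 6 calls were lower. By that scaling tHMG1 was lower in adult testes in BM1 (−0.56), BM5 (−0.37), BM6 (−0.32), BM46 (−0.17), BM21 (−0.29) and the parental stock (−0.23), and Prtl99C had −0.017 in the parental stock. That scaling also moved the median of all genes in the parental stock, to −0.47. The 4 adult calls against the parental stock became 13 with DESeq2-type size factors, 9 with library size alone (8 higher, 1 lower), 8 with DESeq2, 25 without the 3 shallow libraries (24 higher, 1 lower), 2 without the accessory gland libraries, and 1 to 14 with single libraries left out. In L3 testes 11 to 15 values were called, against 12, and leaving out parental replicate 4 gave 9 higher and 4 lower, against 5 and 7. Between sterile and fertile adult lines DESeq2 called 1 gene and every other setting 0. The test over all lines called 1 gene without the accessory gland libraries and 1 to 2 without a replicate number, against 4. Over all genes it called 5704 and 3890 to 6082 in these settings, against 6925. The cause of these moves was not tested. With the replicate number as a block, calls were 5 in the parental stage comparison, 44 over 8 lines, 3 in adult and 12 in L3 testes against the parental stock, and 4 over all lines.

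Over all genes, DESeq2 called 1610 genes between classes in adult and 1400 in L3 testes, against 375 and 726 by edgeR and 34 and 238 with plate row as a covariate. For the interaction DESeq2 called 190, DESeq2-type size factors 9, and no filter or no accessory gland libraries 8 each, against 0. For adult lines against the parental stock DESeq2 called 1154 (BM4) to 4090 (BM1) genes, against 2265 and 6507. For the test over all lines DESeq2 called 4004, against 6925. DESeq2 called 4864 (BM6) and 4629 (BM24) genes between stages, against 8921 and 7812 by edgeR with the same libraries.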

Other observations

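A few genes of the lists above were called between sterile and fertile lines. Of 19 genes listed for the histone to protamine transition, 2 were called in adult and 1 in L3 testes. All were testis bromodomain genes, tbrd-3 and tbrd-2, and all were lower in sterile lines. No remodeler, histone chaperone, ubiquitin ligase or histone variant gene of that list was called. Of all genes, 2.76% and 5.53% were called. With plate row as a covariate the calls over all genes fell from 375 to 34 in adult and from 726 to 238 in L3 testes. Whether the genes named here kept their calls in that or any other setting was not tested. Among the other sperm nuclear protein, spermatocyte-transcribed and cup and comet genes, 0 were called at either stage. tbrd-3, which encodes a testis bromodomain protein, averaged 24.4 ± 4.83 CPM in sterile (SD, n = 5) and 65.8 ± 1.56 CPM in fertile adult lines (n = 3), a log2 fold change of −1.43 (edgeR adjusted p = 0.00439). In L3 testes it averaged 59.6 ± 11.6 CPM in sterile and 105.6 ± 2.95 CPM in fertile lines (−0.83, adjusted p = 0.00923). tbrd-2 was lower in adult sterile lines (98.5 ± 6.40 CPM, against 126.2 ± 9.12 CPM in fertile lines, −0.36, adjusted p = 0.0491). Of 13 meiotic arrest regulators 2 were lower in sterile L3 testes, tomb (−0.36, adjusted p = 0.0401) and vis (−0.33, adjusted p = 0.0320), and none was called in adult testes.

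Mst77Y-7, a Y-linked relative of Mst77F, averaged 5.78 ± 1.42 CPM in sterile and 2.37 ± 1.14 CPM in fertile L3 lines (log2 fold change 1.29, adjusted p = 0.0425). In adult testes it averaged 8.52 ± 2.55 CPM in sterile and 3.37 ± 0.98 CPM in fertile lines, which did not pass (log2 fold change 1.34, adjusted p = 0.0539). Reads shared with Mst77F or the other copies could move these low values.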
